A study of Homo sapiens with 9 samples.

Results

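Solute carriers are membrane proteins that move small molecules across the plasma membrane and the membranes of organelles. Their genes were followed here in Caki-1 cells, a human clear cell renal carcinoma line, after knockdown of TAF1D by short hairpin RNA. The members are all genes of the deposited table with a symbol made of SLC and a number, or starting with SLCO, other than SLC7A5 and SLC38A2. That gave 133 of the 6819 genes in the table, represented by 335 of its 20909 transcripts. Total RNA was sequenced in 9 libraries: 3 of TAF1D knockdown cells named SH1, 3 of TAF1D knockdown cells named SH3, and 3 of control cells labelled as wild type. SH1 and SH3 are not explained in the labels, which also do not say whether each line is 1 clone, what the control hairpin was, if any, or whether replicates come from separate cultures, so every p-value rests on a spread between libraries that may be technical. TAF1D, which encodes a subunit of the selectivity factor of RNA polymerase I, is not among the genes analysed here, so the knockdown could not be checked on its target.

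Solute carriers work by alternating access: the protein binds its substrate on one side of a membrane and releases it on the other, without splitting ATP itself. They are grouped into numbered families by sequence, and a family often shares a kind of substrate. Several SLC16 carriers move lactate and pyruvate together with protons. SLC1, SLC6, SLC7 and SLC38 carriers move amino acids, and SLC30 and SLC39 carriers move zinc. SLC35 carriers bring nucleotide sugars into the Golgi, and SLC25 carriers sit mostly in the inner mitochondrial membrane. In the renal tubule solute carriers reabsorb glucose, phosphate, amino acids and salts, and in clear cell carcinoma, in which glycolysis runs high, the export of lactate is a well-studied task of the family. Not every member is itself a transporter. SLC9A3R2 encodes a scaffold protein, now named NHERF2, that binds a sodium-proton exchanger. SLC3A2 encodes a heavy chain that brings SLC7 carriers to the cell surface, and it is counted with the amino acid carriers. Another 5 genes of the table have received SLC symbols since (MFSD9, TMCO3, MFSD13A, MFSD5 and TMEM241) and are not counted as members.

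The deposited table is a selection of transcripts, and this bears on every value below. Between SH1 1 and control 1 all of its transcripts differ at least 2-fold in estimated count, while over the remaining 35 library pairs the share that differs so much is 51.51% to 64.85%. A gene's level is therefore the sum of its listed transcripts only, in FPKM (fragments scaled to transcript length and to the fragments of the library), and not the level of the whole gene. Of the 335 transcripts 166 were higher and 169 lower in SH1 1 than in control 1, and 72 members had listed transcripts of both kinds, while 34 had only higher and 27 only lower ones. The estimated counts of the members added up to 15710 to 19307 per library, out of 1358215 to 1596467 for all listed transcripts. At transcript level the data were sparse, since 85.4% of the member transcripts were at 0 in some but not all libraries of a group. The kidney markers in the table were 3 of 11 (EPAS1, MET and PAX8), with a summed level of 7.01 to 9.91 FPKM in SH1, 8.21 to 17.0 in SH3 and 2.96 to 5.13 in control libraries. Markers of other cell types were 2 of 9 (ACTA2 and CD68), with 13.9 to 17.8 FPKM in SH1, 12.7 to 16 in SH3 and 8.73 to 16.4 in control libraries. The part of these shifts in the results was not tested, and in bulk RNA fewer cells of a kind and less RNA per cell cannot be told apart. The sums cover only listed transcripts of few markers, all in the same cell line, so they are no measure of cell kinds. The defining transporters of the proximal and distal tubule, 0 of 7 of which are in the table, were not analysed here.

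Most members were expressed at low levels. The median member had a mean of 0.964 FPKM over the 9 libraries, against 1.34 FPKM for the median gene of the table. A mean of at least 1 FPKM was reached by 62 members and 12 stayed under 0.1 FPKM. The member with the highest level was SLC16A1, the lactate and pyruvate carrier also called MCT1, with a mean of 39.7 FPKM and the first rank in each group. Next came SLC5A6, a sodium-dependent carrier of biotin and pantothenate, with 9.0 FPKM, SLC50A1, a sugar carrier of the SWEET family, with 8.7 FPKM, and SLC39A9, a zinc carrier, with 8.03 FPKM. SLC35B1, which brings ATP into the endoplasmic reticulum, followed with 7.78 FPKM and SLC66A2 with 7.58 FPKM. With both copies added, SLC16A1 alone made up between 6.66% and 20.8% of the summed FPKM of the members, depending on the library. Its libraries were also close to each other. The mean of its within-group coefficients of variation was 8.61%, the 4th lowest of the 62 members of at least 1 FPKM, whose median was 39.7% (36.2% for all genes of at least 1 FPKM).

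**Figure D1:**
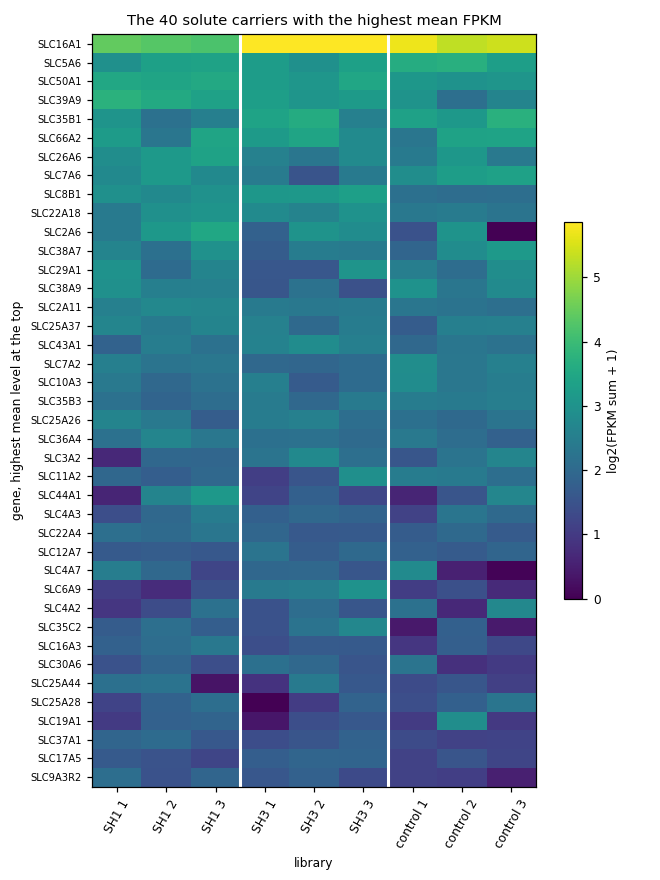
Heat map of the 40 solute carrier genes with the highest mean FPKM, ordered by that mean. Columns are the 9 libraries (SH1, SH3 and control, 3 each) and colour is log2 of the FPKM sum plus 1. SLC16A1, with both listed copies added, is the brightest gene in every library, and its 3 SH1 columns are darker than SH3 and control columns.

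After a filter on low counts, 118 of the 133 members could be tested with the edgeR quasi-likelihood test on summed estimated counts, and 15 could not. The highest mean among those 15 was 0.387 FPKM. Of the 118, SLC16A1 fell in SH1 against control and 0 rose at a Benjamini-Hochberg adjusted p under 0.05, where 2.14% of all 6398 genes tested were called (1.06% higher and 1.08% lower). In SH3 against control SLC8B1, a mitochondrial sodium-calcium exchanger, rose and 0 fell, against 0.406% of all genes (0.297% higher and 0.109% lower). SLC16A1 was also higher in SH3 than in SH1, and 0 members were lower, against 1.36% of all genes (0.781% higher and 0.578% lower). In the average of SH1 and SH3 against control SLC8B1 rose and SLC16A1 fell, against 1.11% of all genes (0.625% higher and 0.485% lower). A share of 0.847% (1 of 118) lay below the background in SH1 against control and in SH3 against SH1, and above it in SH3 against control through the 1 gene SLC8B1. The share in the average was 1.69%. Fold changes are given below as log2 ± standard error, with the first-named group over the second, and levels as FPKM ± SD, with n = 3 libraries per group. The standard error was derived from the edgeR test, as the size of the fold change over the square root of its F statistic.

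Without adjustment, 6 members had a p under 0.05 upward and 8 downward in SH1 against control (11.9% of the members tested; 5.5% of all genes upward and 6.0% downward, 11.5% in all). The counts were 5 upward and 4 downward in SH3 against control (7.63%, with 8.39% of all genes, 4.25% upward and 4.14% downward), and 5 upward and 1 downward in SH3 against SH1 (5.08%, with 10.8% of all genes, 5.56% upward and 5.22% downward). For the average they were 4 upward and 8 downward (10.2%, with 10.2% of all genes, 4.88% upward and 5.31% downward). The median log2 fold change of the members was -0.08 in SH1 against control, 0.10 in SH3 against control, 0.15 in SH3 against SH1 and 0.01 for the average. For all genes it was -0.03 in SH1 against control, -0.03 in SH3 against control, 0.00 in SH3 against SH1 and -0.07 for the average. Overlap between libraries, here and below, was judged on FPKM, while fold changes come from estimated counts scaled by edgeR. These scales differ, so more genes can lie above than below by FPKM at a median fold change near 0. Members whose 3 SH1 libraries all lay above the 3 controls numbered 20 (16.9%, with 12.9% of all genes), and 10 lay below (8.47%, with 7.33%). In SH3, 19 lay above the controls (16.1%, with 10.2%) and 14 below (11.9%, with 7.13%). Between the knockdown groups 15 were higher in all SH3 than in all SH1 libraries (12.7%, with 9.75%) and 18 lower (15.3%, with 12.6%). All 6 knockdown libraries lay above all controls in 7 members (5.93%, with 4.08%) and below them in 4 (3.39%, with 2.25%). DESeq2, an alternative test, called 7 members in SH1 against control (5.93%, with 7.19% of all genes), 6 in SH3 against control (5.08%, with 4.03%), 4 in SH3 against SH1 (3.39%, with 6.35%) and 7 in the average (5.93%, with 5.63%).

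Of the 263 member transcripts tested singly, edgeR called 0 in SH1 against control (0.131% of all transcripts) and 0 in SH3 against control (0.0286%). It called 2 in SH3 against SH1 (0.76% of the member transcripts, with 0.0972% of all) and 0 in the average (0.12%). These 2 are listed copies of 1 SLC16A1 transcript with identical values. Without adjustment, 22 transcripts had a p under 0.05 in SH1 against control (8.37%, with 7.83% of all transcripts), 19 in SH3 against control (7.22%, with 5.87%), 12 in SH3 against SH1 (4.56%, with 6.25%) and 26 in the average (9.89%, with 7.37%). DESeq2 called 7 transcripts in SH1 against control (2.66%, with 2.79%), 5 in SH3 against control (1.9%, with 2.06%), 6 in SH3 against SH1 (2.28%, with 2.32%) and 8 in the average (3.04%, with 2.63%).

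**Figure D2:**
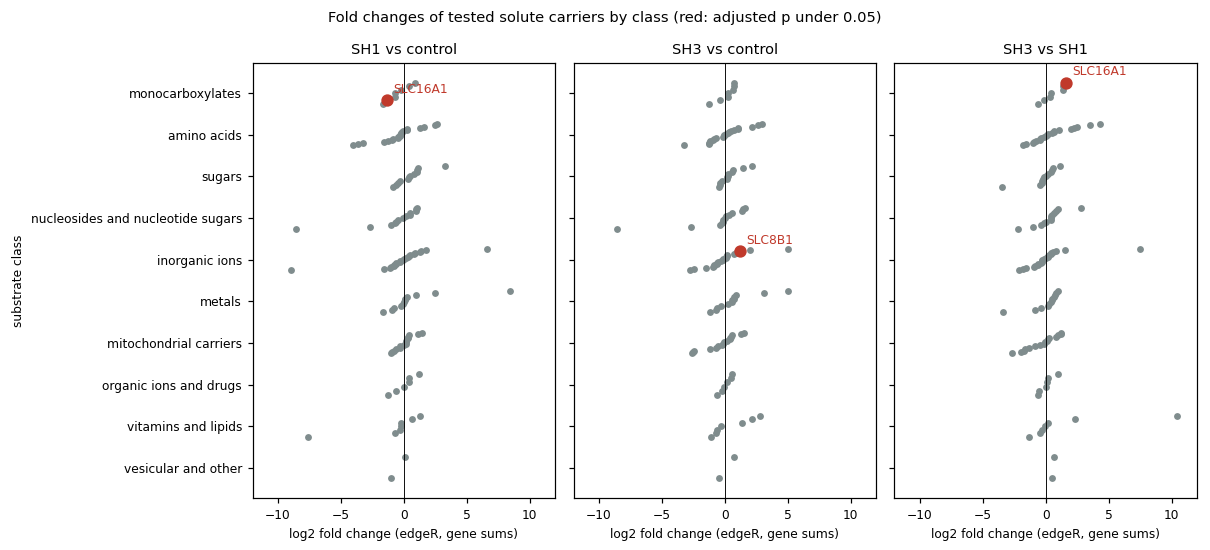
Log2 fold changes of the tested solute carrier genes (edgeR, gene sums) by substrate class, 1 panel per comparison. Each point is 1 gene and red points have an adjusted p under 0.05: SLC16A1 in SH1 against control and in SH3 against SH1, and SLC8B1 in SH3 against control. The classes scatter around 0, and the most distant points are genes whose counts are all 0 in a group.

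SLC16A1 (Gene ID 6566) showed the clearest difference of the members, with less of it in SH1 than in either other group. Its product exports lactate from glycolytic cells and imports it into others, together with a proton. The sum of its listed transcripts was 20.8, 18.8 and 17.2 FPKM in SH1, 56.8, 55.9 and 56.1 FPKM in SH3, and 51.5, 38.3 and 41.4 FPKM in control libraries. The SH1 libraries lay below all 6 others, and the SH3 libraries lay above the controls. Means were 18.9 ± 1.76 FPKM in SH1, 56.3 ± 0.458 in SH3 and 43.7 ± 6.87 in control. SLC16A1 fell in SH1 against control by 1.36 on the log2 scale (SE 0.11, edgeR adjusted p = 0.00123). In SH3 against SH1 it was higher by 1.65 ± 0.11 (edgeR adjusted p = 0.00081). SH3 against control gave 0.29 ± 0.11, which did not pass (edgeR adjusted p = 0.532), although the libraries did not overlap. The average of both knockdown groups against control, -0.54 ± 0.10, was just past the threshold (edgeR adjusted p = 0.0497), passed in 3 of 21 alternative settings and joins groups that lie on opposite sides of the control mean.

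The SLC16A1 sum rests on 1 transcript, NM_003051, which the table lists as a first and a further copy with identical values in every library (10.4, 9.42 and 8.62 FPKM in SH1, 28.4, 28 and 28.1 FPKM in SH3, and 25.7, 19.2 and 20.7 FPKM in control). These 2 copies were the only member transcripts called in any comparison at transcript level, in SH3 against SH1, at 1.63 (edgeR adjusted p = 0.028, with 0.0972% of 17495 transcripts called). Counting 1 copy alone left the gene-level result at -1.37 in SH1 against control (edgeR adjusted p = 0.00209). Since SH1 1 and control 1 had chosen the transcripts, both were also left out: SLC16A1 then had -1.28 in SH1 against control (edgeR adjusted p = 0.0126) and 1.67 in SH3 against SH1 (edgeR adjusted p = 0.00591). Each of these comparisons passed in 22 of 22 alternative settings.

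**Figure D3:**
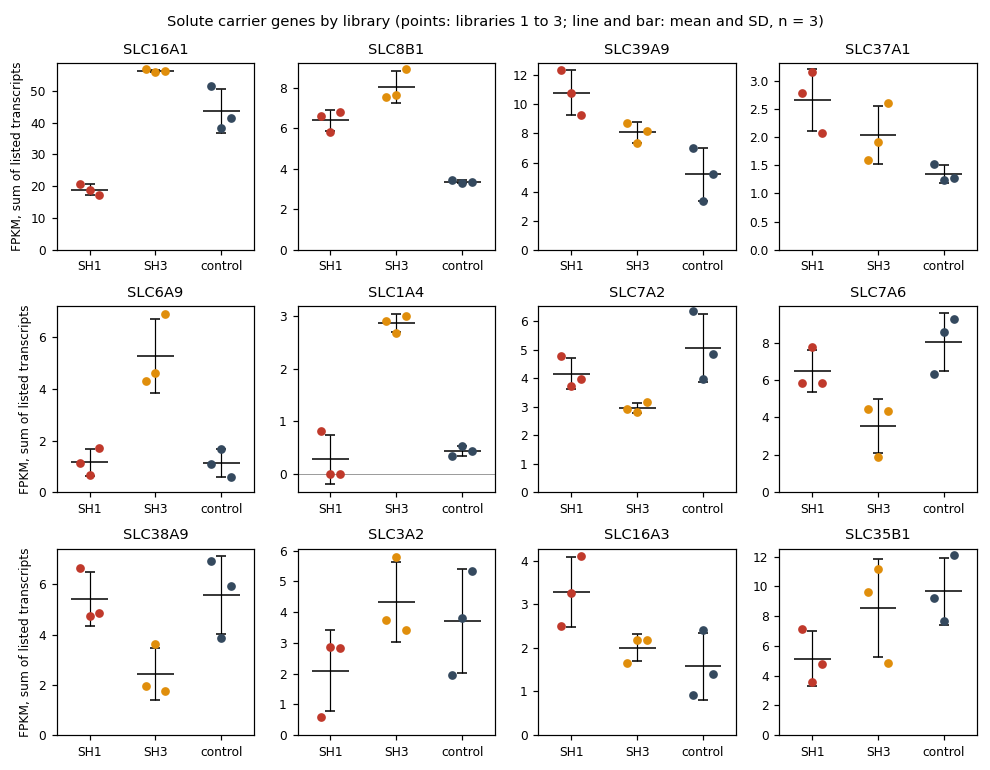
FPKM sums of 12 solute carrier genes in the single libraries of SH1, SH3 and control, with the mean (horizontal line) and SD (bar) of 3 libraries. SLC16A1 averages 18.9 FPKM in SH1 against 56.3 in SH3 and 43.7 in control, SLC8B1 is higher in both knockdown groups than in the narrow control group, and SLC6A9 and SLC1A4 are highest in SH3.

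Among the other genes of family SLC16, 0 passed the edgeR test in any comparison, and 2, SLC16A6 and SLC16A7, had group means in the same order as SLC16A1, at low levels and with overlapping libraries. SLC16A3, or MCT4, the lactate exporter of hypoxic and highly glycolytic cells, was at 2.5, 3.25 and 4.11 FPKM in SH1, 1.66, 2.19 and 2.17 in SH3, and 0.91, 2.41 and 1.40 in control. Its SH1 libraries lay above all others, but 0.88 ± 0.47 in SH1 against control did not pass (edgeR adjusted p = 0.571), nor did -0.63 ± 0.47 in SH3 against SH1 (edgeR adjusted p = 0.821). SLC16A7, the high-affinity pyruvate carrier MCT2, averaged 0.667 ± 0.377 FPKM in SH1, 1.63 ± 1.15 in SH3 and 0.987 ± 0.912 in control, with overlapping libraries. SLC16A9, a carnitine carrier, averaged 1.25 ± 0.234 FPKM in SH1, 1.04 ± 0.227 in SH3 and 1.31 ± 0.367 in control. SLC16A6 averaged 0.0933 ± 0.162 FPKM in SH1, 0.233 ± 0.214 in SH3 and 0.14 ± 0.125 in control. All 7 SLC16 genes of the table were tested, and 1 of them, SLC16A1, was called. Their median log2 fold change was -0.68 in SH1 against control, 0.29 in SH3 against control and 0.41 in SH3 against SH1.

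Of 23 glycolysis and lactate genes listed as partners of these carriers, 16 are in the table and 15 were tested. PKM, the pyruvate kinase that makes the last step of glycolysis, averaged 128 ± 18.5 FPKM in SH1, 60.4 ± 2.54 in SH3 and 56 ± 7.14 in control. It rose in SH1 against control (1.02 ± 0.16, edgeR adjusted p = 0.0215) and was lower in SH3 than in SH1 (-1.0 ± 0.16, edgeR adjusted p = 0.0312), the reverse of SLC16A1. Its log2 fold change was 0.92 to 1.19 in SH1 against control and -1.11 to -0.87 in SH3 against SH1 over 22 alternatives, of which 13 passed in each comparison. The call in SH1 against control was lost without control 1, control 3, SH1 2 or any 1 SH3 library (edgeR adjusted p = 0.0506 to 0.0955). The call in SH3 against SH1 was lost without control 3 or any 1 SH1 or SH3 library (edgeR adjusted p = 0.0575 to 0.142). The other 14 did not pass in edgeR in any comparison, with medians of 0.20 in SH1 against control, 0.27 in SH3 against control and 0.33 in SH3 against SH1 over the 15. HK2, a hexokinase that starts glycolysis, averaged 6.55 ± 0.254 FPKM in SH1, 8.32 ± 1.02 in SH3 and 9.09 ± 0.956 in control, with -0.64 ± 0.16 in SH1 against control (edgeR adjusted p = 0.104, DESeq2 adjusted p = 0.00232). LDHB, which converts lactate to pyruvate, averaged 0.407 ± 0.153 FPKM in SH1, 1.10 ± 0.586 in SH3 and 1.67 ± 0.133 in control (-2.15 ± 0.83 in SH1 against control, edgeR adjusted p = 0.375, DESeq2 adjusted p = 0.0272).

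Among all 3905 genes of the table with a mean of at least 1 FPKM, the pattern of SLC16A1 over the 9 libraries was most closely followed by SERPINB5, a serpin family protein, with a Pearson correlation of log2 values of 0.995. SOWAHC (0.984), LOX, the lysyl oxidase that crosslinks collagen (0.983), FGF5, a fibroblast growth factor (0.981) and IMPA1, an inositol monophosphatase (0.974), came next. LOX averaged 6.85 ± 0.658 FPKM in SH1, 19.3 ± 1.11 in SH3 and 13.6 ± 3.31 in control. These values share 9 libraries and 3 group means, and genes were picked for the correlation, so they are a description of likeness only.

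SLC8B1 (Gene ID 80024), which lets calcium out of mitochondria in exchange for sodium, was higher in both knockdown groups than in control. It was at 6.62, 5.82 and 6.79 FPKM in SH1, 7.54, 7.67 and 8.95 FPKM in SH3, and 3.46, 3.29 and 3.35 FPKM in control libraries. All knockdown libraries lay above all controls, and all SH3 libraries above all SH1 libraries. The rise passed in SH3 against control (1.18 ± 0.17, edgeR adjusted p = 0.0369, DESeq2 adjusted p = 1.75e-12). It also passed in the average (0.98 ± 0.15, edgeR adjusted p = 0.0294). SH1 against control gave 0.77 ± 0.17 (edgeR adjusted p = 0.0764, DESeq2 adjusted p = 1.24e-05) and passed in 4 of 22 alternative settings. SH3 against SH1 gave 0.42 ± 0.17 (edgeR adjusted p = 0.431), so a difference between the knockdown groups was not shown. The call in the average held in 10 of 21 alternative settings and in none with a library left out. The SH3 call was lost when any 1 of the 9 libraries was left out, with log2 fold changes of 1.10 to 1.23 and edgeR adjusted p of 0.0513 (without SH1 3) to 0.164 (without SH3 3). Most of the sum came from NM_001358345, at 6.62, 3.99 and 6.01 FPKM in SH1, 7.54, 7.42 and 7.21 in SH3, and 2.01, 3.14 and 3.35 in control.

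**Figure D4:**
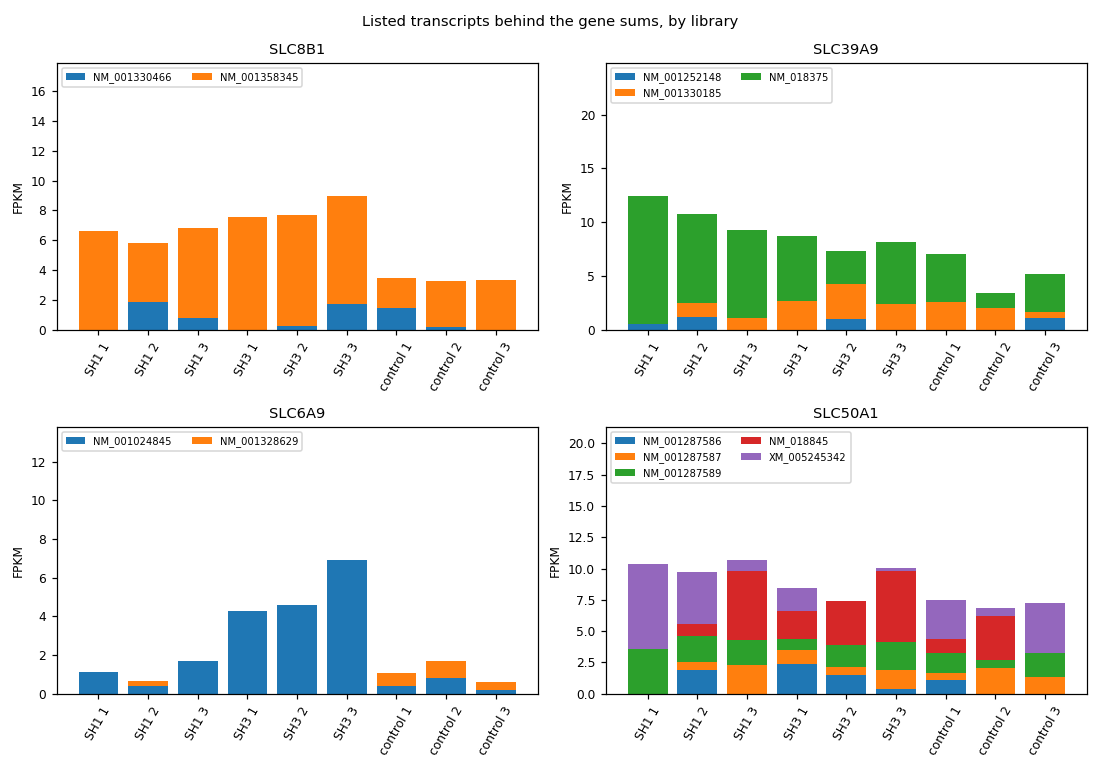
FPKM of each listed transcript of SLC8B1, SLC39A9, SLC6A9 and SLC50A1 in the 9 libraries, stacked to the gene sum. The share of single transcripts differs between libraries of 1 group, most in SLC50A1, while the sums differ less. In SLC8B1 most of the sum is 1 transcript in every library, and in SH3 all of SLC6A9 is 1 transcript.

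Among the other carriers of inorganic ions 0 passed in edgeR or in DESeq2, and 2, SLC9A3R2 and SLC4A11, had an unadjusted edgeR p under 0.05 in SH1 against control. Of 22 tested members of the class, 11 had positive and 11 negative log2 fold changes in SH1 against control, while 10 were positive and 12 negative in SH3 against control. SLC26A6, an exchanger of chloride, oxalate and bicarbonate, averaged 7.84 ± 1.55 FPKM in SH1, 4.94 ± 1.02 in SH3 and 5.31 ± 1.92 in control. Its SH3 libraries lay below its SH1 libraries (-0.59 ± 0.35, edgeR adjusted p = 0.664). The scaffold gene SLC9A3R2 averaged 2.62 ± 0.785 FPKM in SH1, 2.02 ± 0.535 in SH3 and 0.923 ± 0.438 in control, with all knockdown libraries above all controls (1.16 ± 0.50 for the average, edgeR adjusted p = 0.485). The phosphate carrier SLC20A2 averaged 1.18 ± 0.439 FPKM in SH1, 0.770 ± 0.0872 in SH3 and 1.59 ± 0.380 in control (-0.89 ± 0.43 in SH3 against control, edgeR adjusted p = 0.647).

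Another 3 ion carriers, taken because of their known roles, were low and variable. The phosphate carrier SLC20A1 averaged 0.887 ± 0.770 FPKM in SH1, 0.970 ± 0.469 in SH3 and 0.213 ± 0.370 in control. SLC12A2, the sodium-potassium-chloride cotransporter NKCC1, averaged 1.02 ± 0.339 FPKM in SH1, 0.280 ± 0.246 in SH3 and 0.360 ± 0.624 in control, with its SH3 libraries below its SH1 libraries (-1.79 ± 2.23, edgeR adjusted p = 0.999). SLC4A4, a sodium-bicarbonate cotransporter of the proximal tubule, averaged 0.133 ± 0.0321 FPKM in SH1, 0.213 ± 0.0351 in SH3 and 0.253 ± 0.163 in control. SLC4A11, mutated in a corneal dystrophy, had 16, 9 and 13 estimated counts in SH1, 0, 12 and 0 in SH3 and 0 in all controls. With 3 counts over the group in place of 0 it was at least 11.4-fold higher in SH1 than in control, and its edgeR adjusted p was 0.42. SLC4A11 passed the filter through knockdown libraries only, so these values give no separate support.

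The amino acid carriers held 0 genes called by edgeR among 21 tested (23 in the table). By FPKM, all SH3 libraries lay above all SH1 libraries in 7 of the 21 and below them in 6 (9.75% and 12.6% of all genes). All SH3 libraries lay above all controls in 3 and below them in 4 (10.2% and 7.13% of all genes). In SH1 against control 6 had positive and 15 negative log2 fold changes (median -0.28), and 0 had an unadjusted p under 0.05 upward and 2 downward (5.5% upward and 6.0% downward among all genes, of which 3108 were positive and 3290 negative). In SH3 against control 10 were positive and 11 negative (median -0.05), with 1 upward and 3 downward (4.25% and 4.14% of all genes). In SH3 against SH1 12 were positive and 9 negative (median 0.07), with 2 upward and 1 downward (5.56% and 5.22% of all genes), and DESeq2 called 2 of them, SLC6A9 and SLC38A4, as higher.

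Promoters are shown here for SLC1A4 and SLC3A2, which carry a match to the composite element bound by ATF4 with C/EBP proteins, and for SLC6A9 and SLC8B1, which carry none. The element was searched because amino acid carriers include known targets of ATF4, the factor of the amino acid response. The motif was chosen with earlier results known. It was searched as TGATGNAA on both strands in RefSeq promoter windows of 300 bases (build GRCh38.p14), and matches are in capitals.
SLC1A4, chr2:64989149-64989448, plus strand: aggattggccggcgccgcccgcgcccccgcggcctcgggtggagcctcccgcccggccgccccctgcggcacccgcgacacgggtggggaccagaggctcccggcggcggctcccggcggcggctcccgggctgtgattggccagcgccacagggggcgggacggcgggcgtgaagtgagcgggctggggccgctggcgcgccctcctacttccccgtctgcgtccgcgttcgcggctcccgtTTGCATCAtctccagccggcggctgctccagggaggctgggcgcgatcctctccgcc
SLC3A2, chr11:62881449-62881748, plus strand: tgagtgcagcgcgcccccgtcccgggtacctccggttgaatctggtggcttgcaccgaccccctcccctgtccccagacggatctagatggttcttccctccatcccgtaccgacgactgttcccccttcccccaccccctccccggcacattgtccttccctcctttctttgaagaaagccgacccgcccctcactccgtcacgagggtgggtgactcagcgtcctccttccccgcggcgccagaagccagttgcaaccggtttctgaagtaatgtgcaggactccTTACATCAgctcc
SLC6A9, chr1:44031413-44031712, minus strand: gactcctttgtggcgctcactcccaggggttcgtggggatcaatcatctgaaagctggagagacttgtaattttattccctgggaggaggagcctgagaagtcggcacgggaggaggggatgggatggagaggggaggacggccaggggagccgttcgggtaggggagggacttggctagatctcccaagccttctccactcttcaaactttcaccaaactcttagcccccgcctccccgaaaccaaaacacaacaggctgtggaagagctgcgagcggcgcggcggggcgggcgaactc
SLC8B1, chr12:113335060-113335359, minus strand: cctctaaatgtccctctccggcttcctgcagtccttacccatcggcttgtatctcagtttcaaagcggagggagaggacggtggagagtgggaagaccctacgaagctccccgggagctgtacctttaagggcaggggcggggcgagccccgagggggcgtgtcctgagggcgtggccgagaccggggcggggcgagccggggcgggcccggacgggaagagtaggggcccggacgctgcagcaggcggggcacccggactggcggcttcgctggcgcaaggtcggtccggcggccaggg
Each of the first pair holds 1 match. These windows span 300 bases around the start of a transcript, and where a gene has several the one with the match is shown. Of 183 promoters of 111 member genes 9 held a match (4.92%), in SLC11A2, SLC1A3, SLC1A4, SLC23A3, SLC25A11, SLC2A5, SLC39A11, SLC3A2 and SLC7A1, against 1270 of 35116 promoters of all genes (3.62%). A match describes the letters only.

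SLC1A4, which exchanges alanine, serine and cysteine, was at 0.81, 0 and 0 FPKM in SH1, 2.90, 2.67 and 3.01 FPKM in SH3, and 0.33, 0.53 and 0.42 FPKM in control. Its SH3 libraries were above all 6 others and close together. Its log2 fold change was 3.53 ± 1.75 in SH3 against SH1 (edgeR adjusted p = 0.552) and 2.63 ± 1.68 in SH3 against control (edgeR adjusted p = 0.805), with 203 to 231 estimated counts in SH3 libraries. Without SH1 1, the SH1 library with counts of this gene, SH3 against SH1 passed (edgeR adjusted p = 0.00982), as did SH1 against control as lower (edgeR adjusted p = 0.0144). The SH1 libraries left were then at 0, so these passes follow from leaving out the counts and give no separate support. DESeq2 gave no adjusted p for SLC1A4 in any comparison. With all libraries, limma-trend on log2 of FPKM plus 1 passed in SH3 against SH1 (limma adjusted p = 0.0136). The same fit passed in SH3 against control (limma adjusted p = 0.0499). Over all alternatives SH3 against SH1 passed in 3 of 21 and SH3 against control in 1 of 21.

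SLC6A9, the glycine carrier GlyT1, had 1.12, 0.67 and 1.71 FPKM in SH1, 4.30, 4.60 and 6.89 FPKM in SH3, and 1.09, 1.68 and 0.61 FPKM in control. The SH3 libraries lay above all others, while SH1 and control overlapped. In SH3 against control it had 2.16 ± 0.53 (edgeR adjusted p = 0.216, DESeq2 adjusted p = 0.00382), and in SH3 against SH1 2.25 ± 0.53 (edgeR adjusted p = 0.119, DESeq2 adjusted p = 0.00152). All of its SH3 level was transcript NM_001024845, while NM_001328629 was listed at 0 in SH3 and at 0.67, 0.85 and 0.41 FPKM in control.

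SLC3A2, the heavy chain that brings SLC7 light chains to the cell surface, had 0.59, 2.87 and 2.84 FPKM in SH1, 3.73, 5.81 and 3.41 FPKM in SH3, and 1.97, 3.80 and 5.35 FPKM in control. SH3 lay above SH1, and the controls overlapped with both (1.10 ± 0.66 in SH3 against SH1, edgeR adjusted p = 0.667). The arginine and lysine carrier SLC7A1 averaged 0.327 ± 0.283 FPKM in SH1, 1.27 ± 0.841 in SH3 and 0.717 ± 0.540 in control (2.0 ± 1.37 in SH3 against SH1, edgeR adjusted p = 0.775). SLC43A1, a carrier of large neutral amino acids, averaged 3.57 ± 0.980 FPKM in SH1, 5.32 ± 0.734 in SH3 and 3.47 ± 0.503 in control, with all SH3 libraries above all others (0.69 ± 0.31 in SH3 against SH1, edgeR adjusted p = 0.48).

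Several other amino acid carriers had their lowest values in SH3, though none passed the edgeR test. SLC7A2, a carrier of arginine and lysine, had 4.77, 3.74 and 3.96 FPKM in SH1, 2.91, 2.82 and 3.16 FPKM in SH3, and 6.36, 3.99 and 4.85 FPKM in control. All SH3 libraries lay below all others, with -0.84 ± 0.18 against control (edgeR adjusted p = 0.151, DESeq2 adjusted p = 0.00128). SLC7A6, a light chain that exchanges cationic for neutral amino acids, averaged 6.49 ± 1.12 FPKM in SH1, 3.55 ± 1.44 in SH3 and 8.04 ± 1.54 in control, and its SH3 libraries also lay below all others (-1.26 ± 0.35 against control, edgeR adjusted p = 0.303, DESeq2 adjusted p = 0.0282). SLC38A9, the lysosomal arginine sensor that acts on mTORC1, averaged 5.43 ± 1.08 FPKM in SH1, 2.43 ± 1.02 in SH3 and 5.58 ± 1.56 in control, again with SH3 below all others (-1.23 ± 0.36 against control, edgeR adjusted p = 0.333, DESeq2 adjusted p = 0.0494). SLC38A9 has 9 listed transcripts, the most of any member together with SLC8A1.

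SLC38A4, a carrier of neutral and cationic amino acids, was graded over the groups at a low level. It had 0.17, 0.03 and 0.07 FPKM in SH1, 0.64, 0.44 and 0.40 FPKM in SH3, and 1.48, 0.89 and 0.80 FPKM in control, with no overlap between any groups. SH1 against control gave -3.65 ± 0.79, just short of the threshold (edgeR adjusted p = 0.0663, DESeq2 adjusted p = 1.88e-06), on 13, 3 and 5 estimated counts in SH1 against 111, 70 and 57 in control.

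The carriers of metals included SLC39A9, a zinc carrier of the secretory pathway and cell surface. It had 12.4, 10.8 and 9.27 FPKM in SH1, 8.73, 7.34 and 8.16 FPKM in SH3, and 6.99, 3.37 and 5.19 FPKM in control, with no overlap between any of the groups. SH1 against control gave 0.93 ± 0.24 (edgeR adjusted p = 0.121, DESeq2 adjusted p = 0.00786) and SH3 against control 0.58 ± 0.24 (edgeR adjusted p = 0.557). SLC39A14, which takes up zinc and iron, had 1.14, 1.69 and 1.15 FPKM in SH1, 2.01, 2.07 and 1.97 FPKM in SH3, and 0, 0 and 0.65 FPKM in control. All its knockdown libraries lay above the controls, with 3.14 ± 1.68 in SH3 against control (edgeR adjusted p = 0.682). Without control 3, the only control with counts of it, the control libraries left were at 0. SLC39A14 then passed in SH1 (edgeR adjusted p = 0.00685), in SH3 (0.0107) and in the average (0.00817). These passes follow from leaving out the counts and give no separate support. DESeq2 gave no adjusted p for SLC39A14 in any comparison. With all libraries, limma-trend on log2 of FPKM plus 1 passed in the average (limma adjusted p = 0.0401). Over all alternatives the average passed in 2 of 20.

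SLC30A7, which brings zinc into the Golgi, had 44, 61 and 30 estimated counts in SH1, 9, 0 and 3 in SH3 and 0 in all controls. With 3 counts over the group in place of 0, it was at least 40.1-fold higher in SH1 than in control and at least 3.66-fold higher in SH3, on 1 predicted transcript (edgeR adjusted p = 0.169 in SH1 and 0.542 in SH3). SLC30A7 passed the filter through its SH1 counts, so these values give no separate support. SLC41A3, of a magnesium carrier family, averaged 0.787 ± 0.583 FPKM in SH1, 1.06 ± 0.380 in SH3 and 2.21 ± 0.700 in control. All of its knockdown libraries lay below all controls (-1.40 ± 0.57 for the average, edgeR adjusted p = 0.457). Of the 12 tested metal carriers 0 passed in edgeR in any comparison (2 upward and 1 downward at an unadjusted p under 0.05 in SH1 against control), and 2 were called higher by DESeq2 in SH1 against control, SLC30A7 and SLC39A9.

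Sugar carriers had 12 tested members, 8 with positive and 4 with negative log2 fold changes both in SH1 and in SH3 against control, with medians of 0.45 in SH1 and 0.23 in SH3. By FPKM, all SH1 libraries lay above all controls in 6 of the 12, and below them in 0 (12.9% of all genes above and 7.33% below). In edgeR 0 passed, and 1 had an unadjusted p under 0.05 in SH1 against control. The last was SLC37A1, a glucose 6-phosphate carrier of the endoplasmic reticulum, with 2.78, 3.15 and 2.07 FPKM in SH1, 1.60, 1.91 and 2.60 FPKM in SH3, and 1.52, 1.24 and 1.27 FPKM in control. Its knockdown libraries lay above all controls (0.84 ± 0.35 in SH1 against control, edgeR adjusted p = 0.407). SLC50A1 averaged 10.3 ± 0.487 FPKM in SH1, 8.64 ± 1.33 in SH3 and 7.22 ± 0.323 in control (0.32 ± 0.24 in SH1 against control, edgeR adjusted p = 0.816). SLC2A11, a member of the GLUT family, averaged 5.29 ± 0.428 FPKM in SH1, 4.23 ± 0.110 in SH3 and 3.64 ± 0.256 in control, with no overlap between any groups (0.38 ± 0.20 in SH1 against control, edgeR adjusted p = 0.579). The vitamin carrier SLC5A6 averaged 8.34 ± 1.43 FPKM in SH1, 8.05 ± 1.26 in SH3 and 10.6 ± 1.72 in control (-0.50 ± 0.19 for the average, edgeR adjusted p = 0.435, but 7.31 with the curated transcript alone, a fitted value and no bound, since that transcript is at 0 in all controls).

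All 13 carriers of nucleosides and nucleotide sugars were tested and 0 passed in edgeR. In SH1 against control 0 had an unadjusted p under 0.05 upward and 2 downward, and DESeq2 called 1, SLC35B2, as lower. SLC35B2, which carries the sulfate donor PAPS into the Golgi, was listed at 0 in all SH1 and SH3 libraries and had 52, 46 and 32 estimated counts in control, on the 1 listed transcript NM_001286509. It was thus at least 48.9-fold lower in SH1 and at least 46.6-fold lower in SH3 than in control, with 3 counts over the group in place of 0 (edgeR adjusted p = 0.153 in SH1 and 0.285 in SH3, DESeq2 adjusted p = 0.0195 in SH1 and 0.0351 in SH3). SLC35B2 passed the filter through the control group alone, so these values describe that group's counts and give no separate support. SLC35B3, a further PAPS carrier, averaged 3.17 ± 0.439 FPKM in SH1, 3.90 ± 0.846 in SH3 and 4.49 ± 0.180 in control, with SH1 below all controls (-0.59 ± 0.27, edgeR adjusted p = 0.482). SLC35B1 averaged 5.14 ± 1.83 FPKM in SH1, 8.54 ± 3.30 in SH3 and 9.66 ± 2.24 in control, again with SH1 below the controls (-1.04 ± 0.40, edgeR adjusted p = 0.368). SLC35A5 averaged 0.373 ± 0.428 FPKM in SH1, 2.45 ± 1.70 in SH3 and 2.23 ± 1.88 in control, with SH1 below both (2.79 ± 1.38 in SH3 against SH1, edgeR adjusted p = 0.55). SLC29A1, the nucleoside carrier ENT1, averaged 5.09 ± 1.91 FPKM in SH1, 3.74 ± 2.97 in SH3 and 4.73 ± 1.53 in control with overlapping libraries.

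Mitochondrial carriers of family SLC25 were 20, of which 16 were tested. In all 4 comparisons 0 passed in edgeR, 0 had an unadjusted p under 0.05 and 0 were called by DESeq2. SLC25A37, the iron importer mitoferrin, averaged 4.94 ± 0.610 FPKM in SH1, 4.13 ± 1.01 in SH3 and 3.97 ± 1.48 in control. SLC8B1, which works in the same membrane, belongs to another family and was not counted among them.

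Of carriers of organic ions and drugs 6 of 8 were tested and 0 passed in edgeR, with 1 at an unadjusted p under 0.05 and called by DESeq2 in SH1 against control, the dicarboxylate carrier SLC13A3, as lower. SLC22A18, an imprinted gene now named SLC67A1, was counted in this class by its older number. It averaged 6.0 ± 1.58 FPKM in SH1, 5.99 ± 0.865 in SH3 and 4.11 ± 0.331 in control (0.51 ± 0.34 in SH3 against control, edgeR adjusted p = 0.816). Of carriers of vitamins and lipids 7 of 11 were tested and 0 passed in edgeR, while SLC46A1 alone had an unadjusted p under 0.05 and was called by DESeq2 in SH3 against SH1. SLC19A1, the reduced folate carrier, averaged 2.06 ± 0.927 FPKM in SH1, 1.34 ± 0.940 in SH3 and 2.76 ± 3.07 in control, and its control mean rests on 6.31 FPKM in control 2. SLC46A1, the proton-coupled folate carrier, was listed at 0 in all SH1 libraries and at 1.94, 0.83 and 1.37 FPKM in SH3, with 0.58, 0 and 0 FPKM in control (edgeR adjusted p = 0.286 in SH3 against SH1, DESeq2 adjusted p = 0.00821). SLC46A1 passed the filter through its SH3 counts and without any SH1 counts, so these values give no separate support. SLC17A5, or sialin, which exports sialic acid from lysosomes, averaged 1.76 ± 0.413 FPKM in SH1, 2.61 ± 0.199 in SH3 and 1.5 ± 0.373 in control, with SH3 above both other groups (0.70 ± 0.36 against control, edgeR adjusted p = 0.67).

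Transporters outside the solute carriers gave a background of the same kind of protein. Of 14 tested ABC transporters, which pump substrates with ATP, 1 rose in SH1 against control and 0 fell in edgeR (3 upward and 1 downward at an unadjusted p under 0.05, and as many in DESeq2), where 2.14% of all genes were called by edgeR, 11.5% had such a p and 7.19% were called by DESeq2. It was ABCA1, the cholesterol exporter, with 5.29 ± 0.257 FPKM in SH1, 1.04 ± 0.180 in SH3 and 1.56 ± 0.135 in control (1.60 ± 0.18, edgeR adjusted p = 0.00317). It was lower in SH3 than in SH1 (-2.26 ± 0.18, edgeR adjusted p = 0.00115). Of 22 tested ATPase pumps 1 rose in SH3 against control, ATP9A, of the P4 family that flips phospholipids, with 4.49 ± 0.625 FPKM in SH1, 5.77 ± 0.736 in SH3 and 1.94 ± 0.520 in control (1.5 ± 0.22, edgeR adjusted p = 0.0399), where 0.406% of all genes were called. That call was lost when any 1 of the 9 libraries was left out (edgeR adjusted p = 0.055 to 0.164). Median log2 fold changes in SH1 against control were 0.49 for ABC transporters and 0.18 for the pumps, and in SH3 against SH1 -0.45 for ABC transporters and -0.33 for the pumps.

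The difference of SLC16A1 between the knockdown groups and the rise of SLC8B1 in SH3 depended on the settings to different degrees. SLC16A1 in SH3 against SH1 had 1.53 to 1.67 over 22 alternatives, with adjusted p from 3.52e-42 (DESeq2) to 0.00937 (edgeR without SH1 2). SLC8B1 in SH3 against control had 1.05 to 1.25 and passed in 10 of 22.

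**Figure D5:**
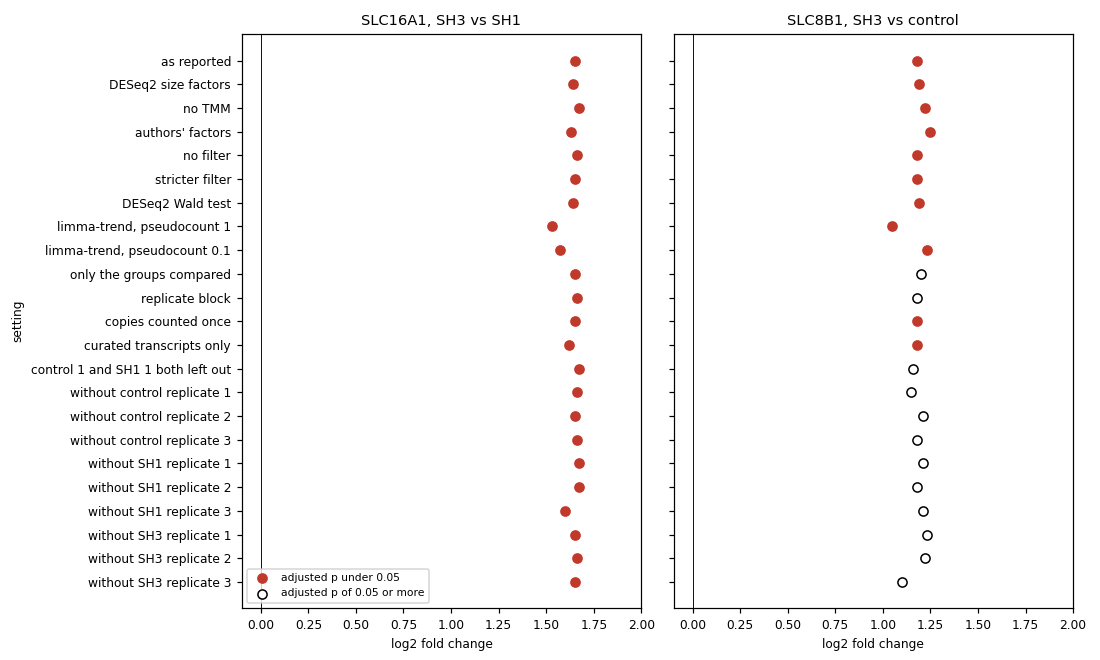
Log2 fold changes of SLC16A1 in SH3 against SH1 and of SLC8B1 in SH3 against control, as reported and under 22 alternative settings. Filled red points have an adjusted p under 0.05 and open points do not. All SLC16A1 points are filled between 1.53 and 1.67, while SLC8B1 keeps its size near 1.18 and is open in every setting with fewer libraries.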

How the data were processed

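The deposited table gives 4 columns per library. Per the file headers these are an estimated count (expected count), an FPKM, a TPM and a normalized read count. The estimated counts, 65.11% of them not whole, were rounded and used for the tests; the authors' FPKM values were used for levels, and the TPM deposited for the same transcripts gave their share of a library (4.2% to 5.18%). The deposited normalized count is a signal: in 100% of values it is the rounded-up estimated count divided by 1 factor per library (relative tolerance 1e-06). It served as an alternative scaling. No tool is given in the sources used here. The submitters' processing notes name the mouse build mm10, whereas 99.96% of the listed transcripts carry human RefSeq gene IDs, so the values were read as human and no gene positions were taken from it; promoter windows are those of RefSeq on GRCh38.p14. How reads were divided between the copies of a transcript is not given in the sources used here.

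Listed transcripts were summed per Gene ID. Sums were tested in 1 fit of 9 libraries with a mean per group (edgeR 4.0.16 quasi-likelihood, R 4.3.3, robust, TMM, filterByExpr with a minimum count of 10), over all genes, with Benjamini-Hochberg adjustment and a threshold of 0.05. The same fit was run on transcripts. The procedure was tested on simulated data. Alternatives were DESeq2 1.42.0, limma 3.58.1 on log2 of FPKM plus 1 or 0.1, other scalings and filters, curated transcripts only, copies counted once, a replicate block, and fewer libraries. A group at 0 was set to 3 counts over the group for a bound. Bounds cover counting error only.

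Members, substrate classes and partner lists were chosen with earlier results of these data known. Named were SLC16A1, called members, the 10 members with the highest mean, fixed carriers (11 of 22 in the table besides SLC16A1), and per comparison up to 5 members each way with the smallest p among sums of at least 1 FPKM without overlap. SLC1A4, SLC38A4, SLC46A1, SLC4A11, SLC30A7, SLC35B2, SLC16A6, SLC16A7, SLC16A9, SLC2A11 and SLC13A3 were added after their values were seen. A member that the rule names is not reported here.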

Additional observations from a re-analysis of the deposited data

Results flagged for a closer look

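SLC16A1, the lactate carrier, moved differently against control in the knockdown groups, tested directly as SH3 against SH1. It was higher in SH3 by 1.65 ± 0.11 on the log2 scale (edgeR quasi-likelihood test, adjusted p = 0.00081), with 3 of 3 SH3 libraries (55.9 to 56.8 FPKM) above 3 of 3 SH1 libraries (17.2 to 20.8 FPKM). Single libraries that stand apart were not looked for by rule, since each group has 3 libraries.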

How the results depend on the processing

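For the gene-level fold changes printed with a test, 1 value changed direction under an alternative (SLC5A6 in the average, 7.31 with curated transcripts only, a fitted value against controls at 0), 1291 stayed on their side of the threshold, 41 passed it only under the alternative and 71 no longer passed. Other comparisons of the same genes were not included in this count. In SH1 against control, where 1 member was called, the authors' factors gave 2, DESeq2 7, limma-trend 6 (pseudocount 1) and 5 (pseudocount 0.1), and leaving out control 1 and SH1 1 gave 2. In SH3 against control, also 1, DESeq2 gave 6, limma-trend 3 and 2, and the fit of only these groups, the replicate block and leaving out control 1 and SH1 1 each gave 0 (8, 7 and 13 at an unadjusted p under 0.05 in edgeR). In SH3 against SH1, again 1, DESeq2 gave 4, limma-trend with pseudocount 1 gave 4, and the fit of only these groups and the one without control 1 and SH1 1 gave 2 each. In the average, with 2, DESeq2 gave 7, DESeq2 size factors, no TMM, the authors' factors, no filter and copies counted once gave 1 each, and the replicate block and leaving out control 1 and SH1 1 gave 0 (9 and 12 at an unadjusted p under 0.05 in edgeR). Leaving out 1 library at a time gave 1 to 2 in SH1 against control, 0 to 1 in SH3 against control, 1 to 2 in SH3 against SH1 and 0 to 1 in the average; the 1 called in SH3 and in the average was SLC39A14, without control 3. SLC16A1 in the average passed in 3 of 21 alternatives and SLC8B1 in 10 of 21, lost when any 1 of the libraries was left out. For transcripts DESeq2 gave 7 in SH1 against control, 5 in SH3 against control, 6 in SH3 against SH1 and 8 in the average, where edgeR gave 0, 0, 2 and 0 (22, 19, 12 and 26 at an unadjusted p under 0.05). In SH3 against SH1 the transcript count was 0 with the replicate block and without control 1 and SH1 1, and 0 to 2 without 1 library. Deviations of same-numbered libraries from their group means had correlations of -0.0652 to 0.076. Libraries with different numbers were not compared, so a pairing by replicate number was neither shown nor excluded. Fits of only the groups compared were not run for the average, which uses all groups. The cause of these shifts was not tested.

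The listed transcripts cover part of each library, and a sum of few estimated counts, as for SLC38A4 in SH1, carries a large counting error.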
